A study of Drosophila melanogaster with 7 samples.

Results

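The vacuolar ATPase (V-ATPase) genes are described here in RNA sequencing of tracheae, the branched airway epithelium, from third-instar larvae of Drosophila melanogaster. They were taken as every row of the gene tables whose name starts with Vha, which gave 33 of 17697 named genes. The 33 genes stand for 15 subunits or accessory proteins, 7 with a single gene and 8 with between 2 and 5 paralogues. 3 libraries came from animals expressing Hop.CA, a form of the JAK kinase gene hop used here to raise JAK/STAT signalling, and 4 from control animals. Hop.CA animals were reared at 18 °C, transferred to 29 °C as second-stage larvae and sampled 18 hours later, while controls stayed at 18 °C. All 7 libraries carry one strain label, which names btl-Gal4 (a driver active in trachea), UAS-GFP, UAS-Hop.CA and tub-Gal80ts (a temperature-sensitive Gal4 repressor), although titles call the controls wild type. Hop.CA expression and the temperature shift cannot be told apart in this design. The libraries are titled as biological replicates, and how many animals each one pooled is not stated.

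The V-ATPase is a rotary proton pump that acidifies lysosomes, endosomes and secretory vesicles and, at the plasma membrane of some epithelia, energises ion transport. Its V1 part hydrolyses ATP in a ring of A and B subunits, which turns a central stalk (D and F) held against peripheral stalks (E and G), with C and H as regulatory subunits. Its V0 part in the membrane carries the protons through subunit a and a rotating ring of c and c'' proteolipids, joined to the stalk by subunit d. In Drosophila several subunits are encoded by more than 1 gene, and some of the extra genes are known for expression in the testis.

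Between 16795748 and 20455268 reads per library were assigned to genes. CPM below are reads scaled to the normalised library size, and RPKM are the deposited length-scaled values, so levels are compared between genes only in RPKM. The hop gene stood at 1444, 1593 and 1342 CPM in Hop.CA tracheae, against 38.4, 43.3, 40.1 and 44.0 CPM in controls, as labelled, with endogenous and transgene reads not told apart. All 7 tracheal marker genes listed passed the filter on low counts, with a summed level of 15731 to 16510 CPM in Hop.CA and 10792 to 11784 CPM in controls. Most of that sum came from serp and verm, both higher in Hop.CA. The other 5 summed to 1942 to 2119.6 CPM in Hop.CA and 2098 to 2252 CPM in controls. Of these 5, trh was higher in Hop.CA (log2 fold change 0.48 ± 0.146 SE, adjusted p = 0.0387 by edgeR). In contrast, btl was lower (log2 fold change -0.63 ± 0.142 SE, adjusted p = 0.0138 by edgeR), and Gasp, obst-A and dysf were not called. Markers of other tissues were also present, and some differed between the groups. For fat body, hemocytes and neurons, none of the 6 tested markers of each was called. The 10 muscle markers summed to between 2959.6 and 9166 CPM in Hop.CA and between 8732 and 18662 CPM in controls, so these ranges overlapped. Imaginal disc markers summed to 91.2 to 124 CPM in Hop.CA and 135 to 206 CPM in controls. Most of that came from hth, at 77.7 to 102 CPM in Hop.CA and 97.7 to 158 CPM in controls (adjusted p = 0.0967 by edgeR). Of the disc markers, 3 were called lower in Hop.CA and 1 higher. The higher one was ey, averaging 3.27 CPM in Hop.CA and 0.889 CPM in controls (adjusted p = 0.00284 by edgeR). Testis markers summed to at most 0.657 CPM in Hop.CA and 10.2 CPM in controls, with sa and Mst84Dc at 0 in all libraries. The 10.2 CPM, in control replicate 4, held 8.85 CPM of vas. In bulk tissue, fewer cells of a type and less RNA per cell cannot be told apart.

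The trachea expressed a gene of every subunit at high level, and a single paralogue provided most of the RNA of each subunit. The 15 highest members, 1 per subunit, had mean RPKM between 55.7 (Vha44) and 511.6 (Vha16-1) over the 7 libraries. A mean of at least 1 RPKM was reached by 20 members, of at least 10 RPKM by 18 and of at least 0.1 RPKM by 21. The other 13 were at or below 0.343 RPKM on average, never had more than 9 reads in a library, and did not pass the filter for testing.

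**Figure D1:**
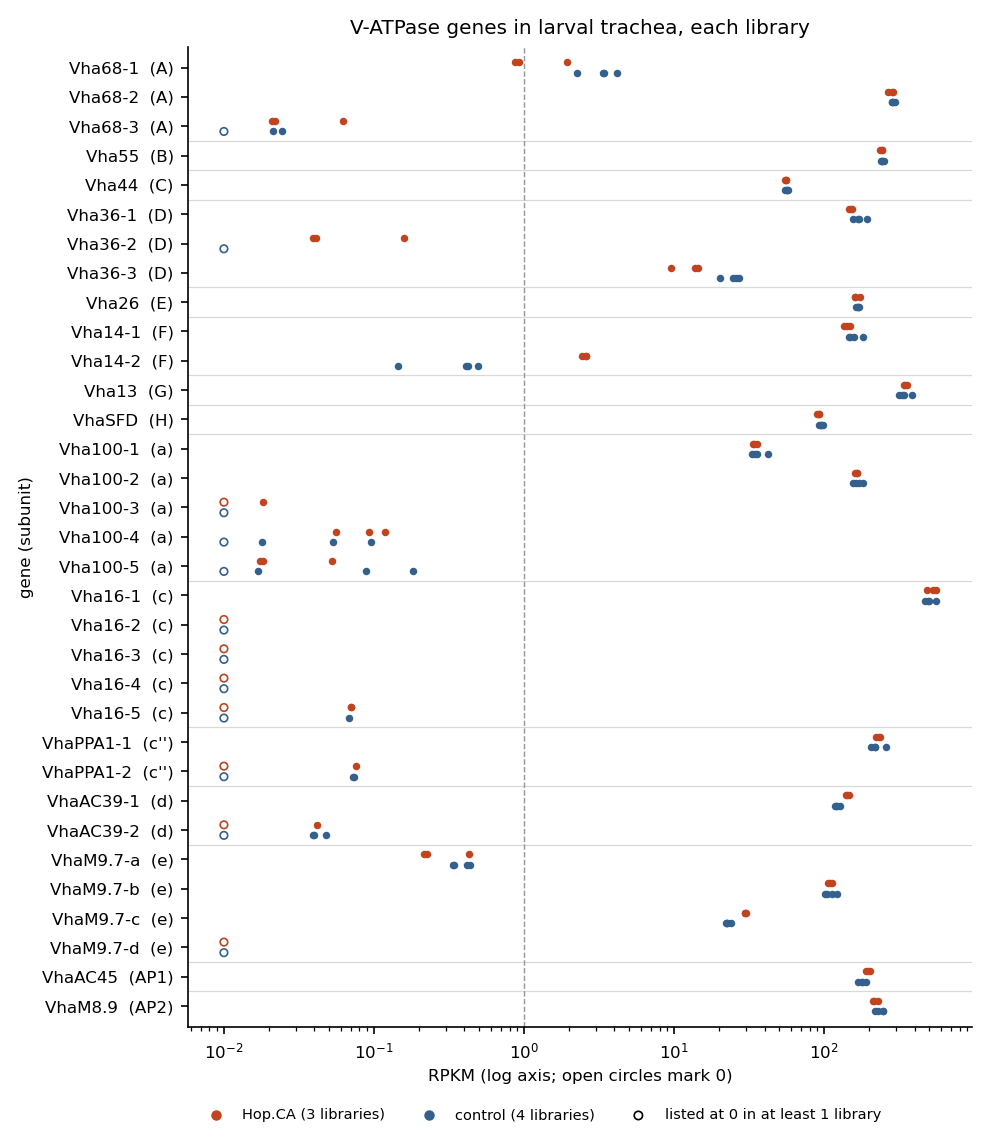
RPKM (log axis) of all 33 V-ATPase genes in each library, grouped by subunit (in brackets), with Hop.CA libraries above control libraries in each row. An open circle marks a gene listed at 0 in at least 1 library of that group, and the dashed line marks 1 RPKM. 20 genes lie at a mean of at least 1 RPKM, with 1 gene per subunit between 55.7 and 511.6 RPKM on average.

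In the V1 head, the catalytic subunit A came from Vha68-2, at 287, 268 and 282 RPKM in Hop.CA and 285, 283, 294 and 288 RPKM in controls. Its partner, subunit B, is encoded by Vha55 alone, at 241, 236 and 242 RPKM in Hop.CA and 251, 240, 243 and 242 RPKM in controls. The 2 genes thus kept a near-constant proportion: Vha68-2 over Vha55 was 1.13 to 1.19 in Hop.CA libraries and 1.14 to 1.21 in control libraries. Of the central stalk, subunit D came mainly from Vha36-1, at 151, 146 and 154 RPKM in Hop.CA and 192, 170, 168 and 156 RPKM in controls. Subunit F came from Vha14-1, at 149, 142 and 136 RPKM in Hop.CA and 182, 159, 146 and 149 RPKM in controls. Both stalk genes were highest in control replicate 1. Vha36-1 was higher in every control library than in any Hop.CA library, while the groups overlapped for Vha14-1. Their ratio, Vha36-1 over Vha14-1, was 1.01 to 1.13 in Hop.CA and 1.05 to 1.15 in controls.

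The peripheral stalk genes Vha26 (subunit E) and Vha13 (subunit G) each have 1 gene. Vha26 stood at 161, 160.0 and 173 RPKM in Hop.CA and at 168, 162, 169 and 171 RPKM in controls. Vha13 stood at 344, 342 and 355.5 RPKM in Hop.CA and at 384, 338, 331 and 314 RPKM in controls. Vha26 over Vha13 was 0.467 to 0.486 in Hop.CA and 0.437 to 0.543 in controls, so the groups overlapped. The regulatory subunits were the lowest of the leading genes. Vha44 (subunit C), which links the head to the stator and leaves it when the pump is taken apart, had 55.0, 55.3 and 55.4 RPKM in Hop.CA and 56.9, 54.4, 56.7 and 56.1 RPKM in controls. VhaSFD (subunit H), the other regulatory subunit, had 91.8, 89.1 and 92.8 RPKM in Hop.CA and 97.9, 94.7, 94.7 and 92.4 RPKM in controls. For both genes the 7 libraries lay close together, and the groups overlapped.

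In the membrane part, Vha16-1, the proteolipid c of the rotor ring, was the highest member, at 531, 483 and 552 RPKM in Hop.CA and 495, 559, 494 and 467 RPKM in controls. VhaPPA1-1, the proteolipid c'', had 232, 220 and 234 RPKM in Hop.CA and 257, 218, 219 and 206 RPKM in controls. Vha16-1 over VhaPPA1-1 was 2.20 to 2.36 in Hop.CA and 1.93 to 2.56 in controls, and the groups overlapped for both genes. Subunit a, which forms the path of the protons, came mainly from Vha100-2, at 166, 166 and 159 RPKM in Hop.CA and 163, 155, 182 and 169 RPKM in controls. A second a gene, Vha100-1, which is known for its role in neurons, had 35.8, 33.4 and 34.3 RPKM in Hop.CA and 35.4, 42.1, 34.3 and 33.0 RPKM in controls. By RPKM, Vha100-1 was the most abundant gene that was not the leader of its subunit, and it was highest in control replicate 2. The small subunit e came mainly from VhaM9.7-b, at 113, 109 and 106 RPKM in Hop.CA and 122, 105, 112 and 101 RPKM in controls. The accessory proteins VhaAC45 (ATP6AP1) and VhaM8.9 (ATP6AP2, also known as the prorenin receptor) matched the core subunits in level. VhaAC45 had 201, 190.4 and 196 RPKM in Hop.CA and 190, 178, 179 and 168 RPKM in controls. VhaM8.9 had 228, 211 and 214 RPKM in Hop.CA and 246, 245, 229 and 216 RPKM in controls. VhaM8.9 overlapped between the groups. VhaAC45 was just separated in RPKM but overlapped in CPM, at 393 to 401 in Hop.CA and 335 to 396 in controls, and its log2 fold change was 0.14 ± 0.0797 (SE; adjusted p = 0.222 by edgeR).

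By mean RPKM over the 7 libraries the leading genes ran Vha16-1, Vha13, Vha68-2, Vha55, VhaM8.9, VhaPPA1-1, VhaAC45, Vha26, Vha100-2, Vha36-1, Vha14-1, VhaAC39-1, VhaM9.7-b, VhaSFD and Vha44. The ranges over the 7 libraries did not meet between successive genes from Vha16-1 to Vha55, between VhaPPA1-1 and VhaAC45, or from VhaM9.7-b to Vha44. All other neighbours in the order had overlapping ranges. VhaM8.9 was above VhaPPA1-1 in 3 of 7 libraries and Vha26 above Vha100-2 in 4 of 7.

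Of the other paralogues, 13 were at or near 0. For subunits c, c'' and d the leading gene gave more than 99.9% of the RPKM of its subunit in every library, and for 5 of the 8 families with paralogues (A, F, c, c'' and d) it gave over 98% in every library. Vha16-2, Vha16-3 and Vha16-4 (subunit c) and VhaM9.7-d (subunit e) had no read in any library. A count of 0 among the 134309418 reads of all 7 libraries allows up to 0.0223 CPM, counting error only. Vha100-3 had 1 read in all, and Vha16-5 and VhaPPA1-2 had 3 each. Vha36-2 had 1, 4 and 1 reads in Hop.CA and none in the 4 control libraries. Vha68-3, VhaAC39-2, Vha100-4 and Vha100-5 lay between 0.0215 and 0.0619 RPKM on average. VhaM9.7-a, the highest of these genes, had 3 to 6 reads per library and 0.343 RPKM. Of the 13 genes not tested, 6 have a single exon in the tables, against 3 of the 20 tested ones.

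Some paralogues lie side by side on the chromosome. Vha68-3 starts 178 bases after Vha68-2 on chromosome arm 2L, and they stood at 0.0215 and 284 RPKM. Vha100-4 and Vha100-2 are 517 bases apart on arm 3R and had 0.0619 and 166 RPKM. VhaPPA1-2 and VhaPPA1-1, 2052 bases apart on the same arm, had 0.0316 and 227 RPKM. Vha16-2 and Vha16-3, both without a read, are 985 bases apart on arm 3L.

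Between Hop.CA and control tracheae the 15 leading genes hardly differed. Their log2 fold changes, Hop.CA over control, ran between -0.18 (Vha36-1) and 0.23 (VhaAC39-1), with a median of -0.02 and standard errors of 0.0676 to 0.102. All 15 were within 0.25 of 0 on the log2 scale, where 45.0% of the 9457 genes tested were, and their median absolute log2 fold change was 0.0376, against 0.292 for all tested genes. The 15 were taken as the highest gene of each subunit, and ranked from 187 to 1211 by mean RPKM among 17697 genes. The tested genes include many of lower level, and genes of like level were not compared. The 95% intervals of the 15 genes reached from -0.40 to 0.40. Their coefficient of variation over the 7 libraries was between 1.69% (Vha44) and 9.84% (Vha14-1).

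Control replicate 1 had the highest CPM of the 4 controls for 12 of the 15 leading genes (80%), while it was the highest for 33.4% of all tested genes. In RPKM it was the highest for 11 of the 15, against 28.7% of all tested genes. For the Hop.CA libraries the order turned with the scaling, for all tested genes as well. In CPM, Hop.CA replicate 2 was the highest of its group for 9 of the 15 (60%), against 35.9% of all tested genes. In RPKM it was the highest for 1 of the 15 (6.67%), against 23.9% of all tested genes. It had the lowest RPKM for 11 of the 15 (73.3%), against 51.8% of all tested genes. Without control replicate 1 the log2 fold changes of the leading genes ran between -0.12 and 0.26. These counts are a description, since the genes are not independent of each other. Vha44, Vha100-2 and Vha100-1 overlap a gene on the other strand (Hmgs, Vti1b and Alg13), and since the counting may not have used strand, reads of each pair may not have been told apart.

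In the quasi-likelihood test of edgeR, with p adjusted by Benjamini-Hochberg over the 9457 genes tested, 5 of the 20 tested members (25%) passed an adjusted p of 0.05, against 31.5% of all tested genes. 3 members (15%) were higher in Hop.CA, against 16.4% of all genes, and 2 (10%) were lower, against 15.1%. Hop.CA and control libraries were fully separated for 6 members (30.0%), the 5 called ones and Vha36-1, against 43.3% of all genes. The members thus passed the threshold no more often than tested genes at large. The median log2 fold change was -0.02 over the 20 members and -0.01 over all tested genes. Of the 5, Vha14-2, VhaM9.7-c, Vha36-3 and Vha68-1 were not the leading gene of their subunit, and VhaAC39-1 was.

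**Figure D2:**
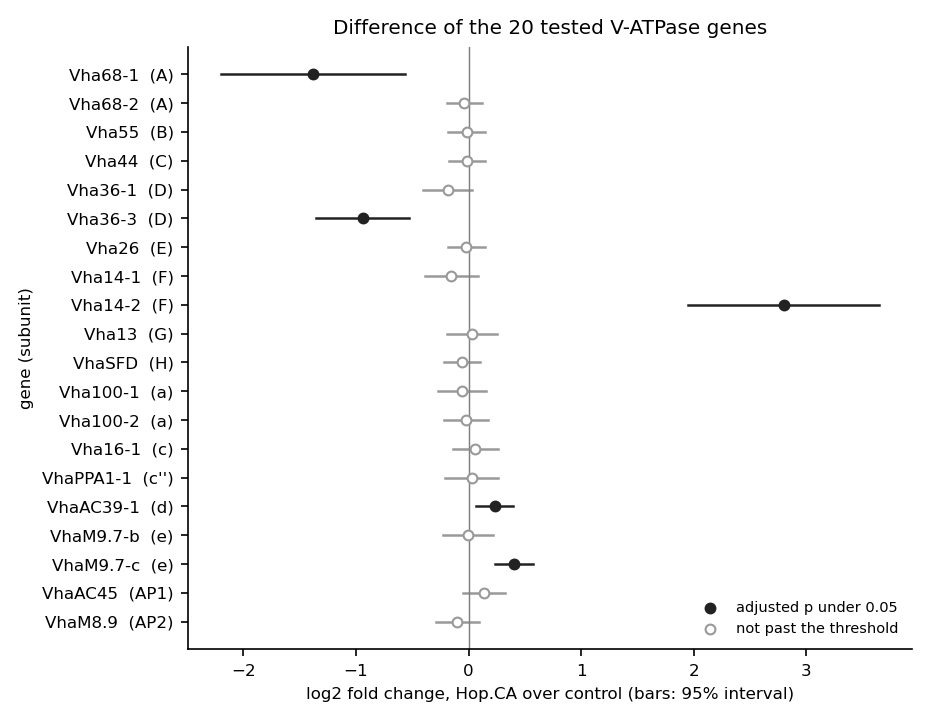
Log2 fold change, Hop.CA over control, of the 20 tested V-ATPase genes (points) with 95% intervals (bars), in the order of the subunits, from edgeR. Filled points passed an adjusted p of 0.05. The leading genes lie between -0.18 and 0.23, while Vha14-2 (2.80), VhaM9.7-c (0.40), Vha36-3 (-0.94) and Vha68-1 (-1.38) lie outside that range.

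Vha14-2, the second gene of stalk subunit F (chromosome arm 3R, 6122592 to 6124405, plus strand, build dm6), had the largest difference. It had 4.55, 4.32 and 4.44 CPM in Hop.CA, against 0.912, 0.240, 0.714 and 0.680 CPM in controls. These came from 86, 81 and 88 reads in Hop.CA and 17, 5, 12 and 14 reads in controls, all of them uniquely assigned. The Hop.CA libraries were close together and all above the controls. Vha14-2 rose by 2.80 ± 0.366 on the log2 scale (SE; adjusted p = 0.00172 by edgeR), or 6.96-fold. It remained a minor gene: its share of the RPKM of subunit F was 1.75% ± 0.0937 in Hop.CA and 0.232% ± 0.0941 in controls (SD, n = 3 and 4). The log2 fold change of Vha14-1, the leading F gene, was -0.15 ± 0.102 (SE; adjusted p = 0.284 by edgeR). Of the genes next to it, Obp83g, 10289 bases away, averaged 32.8 CPM in Hop.CA and 60.4 CPM in controls (adjusted p = 0.0668 by edgeR), and CR43486 was too low to test.

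Vha36-3, the second gene of stalk subunit D (chromosome arm X, 2579091 to 2580560, minus strand), had 12.3, 19.6 and 17.7 CPM in Hop.CA, against 36.3, 25.9, 32.0 and 33.0 CPM in controls. All Hop.CA libraries were below all controls. It fell by 0.94 ± 0.178 on the log2 scale (SE; adjusted p = 0.00718 by edgeR). The leading gene Vha36-1 (159, 162 and 163 CPM in Hop.CA, against 211, 179, 180 and 164 CPM in controls) did not pass the threshold, its log2 fold change being -0.18 ± 0.0940 (SE; adjusted p = 0.172 by edgeR). Vha36-3 gave 5.94, 9.01 and 8.21% of the RPKM of subunit D in Hop.CA and 12.3, 10.6, 12.8 and 14.1% in controls. Its neighbours Pdfr and CG13759 were too low to test.

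Vha68-1, the minor gene of the catalytic subunit A (chromosome arm 2L, 13000770 to 13004107, minus strand), had 2.43, 5.44 and 2.32 CPM in Hop.CA, against 9.28, 5.95, 9.16 and 11.03 CPM in controls. The groups did not overlap, but Hop.CA replicate 2 and control replicate 2 were close. It fell by 1.38 ± 0.352 on the log2 scale (SE; adjusted p = 0.0214 by edgeR), and 97.7% of its reads were uniquely assigned. The call was lost without Hop.CA replicate 1 (adjusted p = 0.0770 by edgeR) and without Hop.CA replicate 3 (adjusted p = 0.0781). Vha68-2 lies 22162 bases away and differed by -0.04 ± 0.0676 on the log2 scale (SE; adjusted p = 0.704 by edgeR). Vha68-1 gave 0.45% ± 0.236 of the RPKM of subunit A in Hop.CA and 1.13% ± 0.260 in controls (SD, n = 3 and 4). Both genes next to Vha68-1 were higher in Hop.CA: CG12404, 134 bases away, differed by 0.45 on the log2 scale (adjusted p = 0.00758 by edgeR) and Tor, 372 bases away, by 0.37 (adjusted p = 0.0119).

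The level of Vha68-1 was set beside that of the muscle markers in each library after the values were seen, and their relation was not tested. The 10 muscle markers summed to 2959.6, 9166 and 3982 CPM in Hop.CA and to 11934, 8732, 14685 and 18662 CPM in controls. 5 of them passed the threshold, all lower in Hop.CA, among them Mlc2 (log2 fold change -1.70 ± 0.417 SE, adjusted p = 0.0213 by edgeR). Hop.CA replicate 2 was the highest and control replicate 2 the lowest of its group for both Vha68-1 and the muscle sum. The order of the other libraries was not the same. Hop.CA replicate 1 had a lower muscle sum than replicate 3 but more Vha68-1 (2.43 against 2.32 CPM). Control replicate 1 had a lower muscle sum than control replicate 3 but slightly more Vha68-1 (9.28 against 9.16 CPM). The log2 of the muscle sum was also used as a covariate, an alternative added after the values were seen. The log2 fold change was then -0.34 for Vha68-1 (adjusted p = 0.439 by edgeR), -0.50 for Vha36-3 (adjusted p = 0.199) and 3.04 for Vha14-2 (adjusted p = 0.0268). VhaM9.7-c (0.45, adjusted p = 0.0763 by edgeR) and VhaAC39-1 (0.25, adjusted p = 0.246) also lost their calls, with fold changes near those without the covariate. Over all tested genes, 805 were called with the covariate and 2978 without it, so a lost call is not particular to these genes. The covariate itself differs between the groups, and the part of muscle in these results was not tested.

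**Figure D3:**
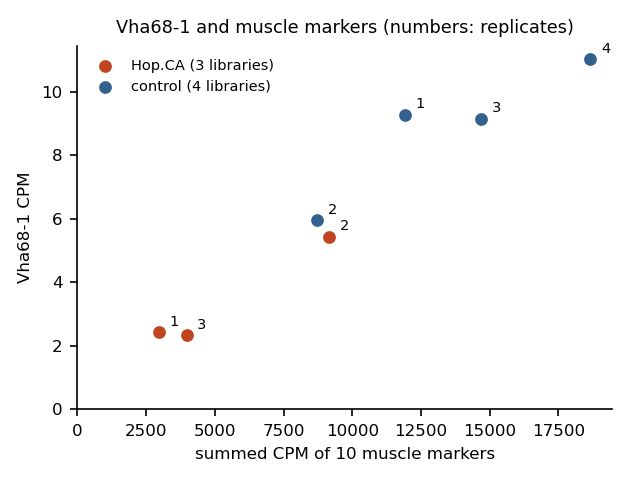
Vha68-1 CPM (vertical axis) against the summed CPM of 10 muscle markers (horizontal axis) in the 3 Hop.CA and 4 control libraries, numbered by replicate. Replicate 2 of Hop.CA (5.44 CPM) and replicate 2 of the controls (5.95 CPM) lie side by side on both axes.

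VhaAC39-1, the leading gene of subunit d (chromosome arm X, 3880748 to 3882967, plus strand), had 258, 261 and 251 CPM in Hop.CA, against 235, 209, 219 and 212 CPM in controls, or 145, 139 and 141 RPKM against 127, 118, 122 and 120 RPKM. All Hop.CA libraries were above all controls. It rose by 0.23 ± 0.0714 on the log2 scale (SE; adjusted p = 0.0418 by edgeR), or 1.17-fold. The call was lost in 10 of 18 alternative settings, among them 6 of the 7 in which 1 library was left out (adjusted p between 0.0796 and 0.129). Of its neighbours, CG2930, 368 bases away, was lower in Hop.CA (log2 fold change -1.15, adjusted p = 0.00479 by edgeR), and CG15239, 1200 bases away, had a log2 fold change of 1.74 (adjusted p = 0.0744).

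VhaM9.7-c, the second gene of subunit e (chromosome arm 3L, 4186018 to 4186865, minus strand), had 25.02, 26.4 and 25.5 CPM in Hop.CA, against 21.1, 18.5, 19.1 and 18.9 CPM in controls. The groups did not overlap. It rose by 0.40 ± 0.0735 on the log2 scale (SE; adjusted p = 0.00619 by edgeR). None of its reads was uniquely assigned, so its level is uncertain, and the reason for this was not tested. The gene lies inside Teh2 on the same strand and overlaps CG18675 on the other. Teh2 itself averaged 0.607 CPM in Hop.CA and 0.644 CPM in controls, and the neighbouring gene tipE did not pass the threshold (adjusted p = 0.507 by edgeR). VhaM9.7-b, which leads subunit e, had a log2 fold change of -0.0042 (adjusted p = 0.979 by edgeR).

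**Figure D4:**
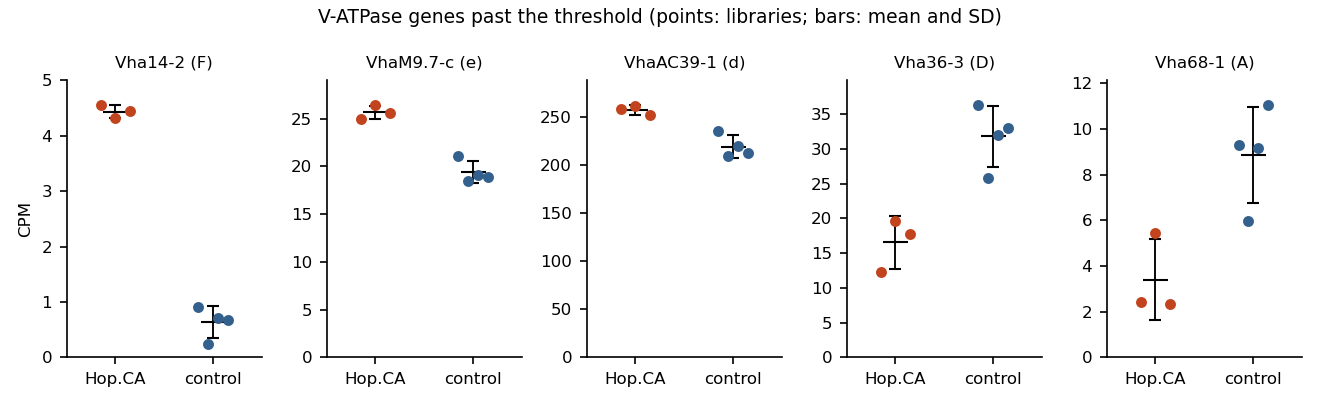
CPM of the 5 V-ATPase genes past the threshold in each library (points), with the mean and SD of the 3 Hop.CA libraries on the left and of the 4 control libraries on the right of each panel. Axes start at 0 and differ between panels. Vha14-2 stands at 4.32 to 4.55 CPM in Hop.CA and at 0.240 to 0.912 CPM in controls.

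Whether the balance between paralogues differed was tested for the 3 subunits whose second gene gave at least 1% of the RPKM. For subunit D, Vha36-1 gave 92.2% ± 1.62 in Hop.CA and 87.5% ± 1.45 in controls (SD, n = 3 and 4), a difference of 4.69 percentage points (two-sided exact permutation p = 0.0571, adjusted over the 3 subunits 0.0857). For subunit e, VhaM9.7-b gave 78.3% ± 0.713 in Hop.CA and 82.6% ± 0.859 in controls, a difference of -4.23 points (exact permutation p = 0.0571, adjusted 0.0857), with VhaM9.7-c at 21.5% ± 0.631 and 17.2% ± 0.834. This difference rests on VhaM9.7-c, none of whose reads was uniquely assigned. From unique reads alone the difference for subunit e was 0.0814 points (exact permutation p = 0.229), while that for subunit D was 4.67 points. For subunit a, Vha100-2 gave 82.5% ± 0.582 in Hop.CA and 82.1% ± 2.47 in controls, a difference of 0.418 points (exact permutation p = 0.971, adjusted 0.971). The value 0.0571 is the smallest that 3 against 4 libraries can give, so this design could not pass 0.05.

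**Figure D5:**
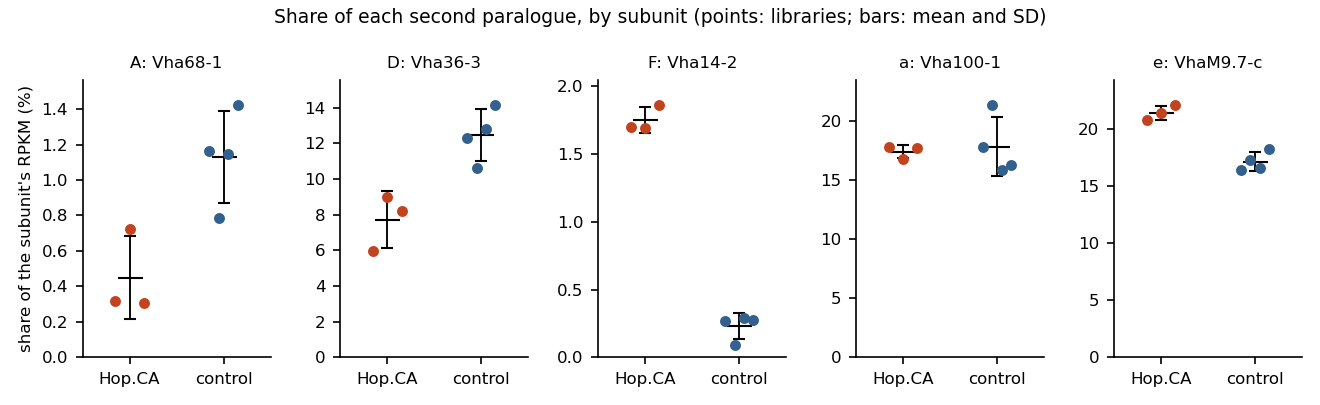
Share of the RPKM of subunits A, D, F, a and e that came from the second paralogue, in percent, per library (points) with mean and SD, Hop.CA on the left and control on the right of each panel. The axes start at 0 and differ between panels. Vha36-3 gives 5.94 to 9.01% in Hop.CA and 10.6 to 14.1% in controls, while Vha100-1 overlaps between the groups. No read of VhaM9.7-c, shown for subunit e, was uniquely assigned.

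Genes that work with the pump were set beside it. Of 7 tested accessory, assembly and regulator genes, 2 were higher in Hop.CA and none was lower by edgeR, and the counts were 2 and 0 with both DESeq2 and limma-voom. The share called was 28.6%, against 31.5% of all tested genes. At an unadjusted p under 0.05, 3 passed, 1 of them lower. The higher ones were Rbcn-3A and Rbcn-3B, the subunits of rabconnectin-3, which helps V1 and V0 assemble. Rbcn-3A averaged 129 ± 8.08 CPM in Hop.CA and 97.95 ± 11.6 CPM in controls (log2 fold change 0.40 ± 0.105 SE, adjusted p = 0.0242 by edgeR). Rbcn-3B averaged 56.1 ± 4.96 CPM in Hop.CA and 41.9 ± 3.91 CPM in controls (log2 fold change 0.42 ± 0.1002 SE, adjusted p = 0.0163 by edgeR). CG31030, which RefSeq names VhaAC45RP and whose row name does not start with Vha, averaged 5.42 ± 0.513 CPM in Hop.CA and 11.2 ± 2.46 CPM in controls (log2 fold change -1.05 ± 0.189 SE, adjusted p = 0.00592 by edgeR), and was looked up for its name alone.

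The next list held genes of TORC1, the growth-control kinase complex (Tor and raptor), and genes that dock or activate it on lysosomes. Of its 11 tested genes, 3 were higher in Hop.CA and 1 was lower, or 36.4% called against 31.5% of all tested genes. RagC-D, a Rag GTPase, averaged 41.1 ± 1.42 CPM in Hop.CA and 31.0 ± 1.01 CPM in controls, Tor (the neighbour of Vha68-1) 65.5 ± 0.767 and 50.7 ± 4.03 CPM, and Rheb, the activating GTPase, 77.4 ± 0.486 and 64.5 ± 3.53 CPM. CG14812, also on this list, was the lower one, at 22.5 ± 2.20 CPM in Hop.CA and 29.3 ± 3.00 CPM in controls. Their adjusted p by edgeR were 0.00361, 0.0119, 0.0233 and 0.0305. Of 23 tested lysosomal genes, 2 were higher and 8 lower, or 43.5% called against the same 31.5%, with a median log2 fold change of -0.23. GILT3, a thiol reductase gene, averaged 1.16 ± 0.628 CPM in Hop.CA and 4.94 ± 0.237 CPM in controls, and Gba1b, a glucocerebrosidase gene, 13.8 ± 2.50 and 8.45 ± 2.12 CPM.

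Among 21 ion transport genes that can work with a proton pump in epithelia, 6 were higher in Hop.CA and 4 lower, with a median log2 fold change of -0.14. That is 47.6% called, against 31.5% of all tested genes. Ncc69, a sodium-potassium-chloride cotransporter, averaged 121 ± 4.53 CPM in Hop.CA and 75.8 ± 6.62 CPM in controls, and Ndae1, an anion exchanger that is sodium-driven, 29.5 ± 4.18 and 14.99 ± 4.06 CPM. The potassium-chloride cotransporter kcc averaged 12.4 ± 2.96 CPM in Hop.CA and 24.7 ± 2.55 CPM in controls. These 3 had adjusted p-values of 0.00148, 0.0141 and 0.00394 by edgeR. The mitochondrial ATP synthase, the related rotary machine that makes ATP, had 14 tested genes of 17 found, none of which passed the threshold in either direction by edgeR, DESeq2 or limma-voom, with a median log2 fold change of -0.01. At an unadjusted p under 0.05 in edgeR, 1 passed. Its ATPsynbeta averaged 1194 ± 64.0 CPM in Hop.CA and 1239 ± 156 CPM in controls. None of these lists was tested as a set.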

How the data were processed

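Total RNA of larval tracheae was made into poly(A) libraries with a stranded kit, per the labels' protocols. The submitters' processing notes name cutadapt 1.8.1 for the reads and dm6 as the genome. No aligner, counting program or use of strand is stated in these sources, so overlapping genes and near-identical copies are uncertain. The authors deposited, per library, whole-number read counts per gene (total, unique, exon, exon-exon and intron) and RPKM, which in the deposited tables equals exon reads per exon length and per library total (a little larger than all gene reads together). 1 unnamed row without reads was left out.

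Groups came from the titles. Between 9.07% and 10.7% of gene reads were not unique and 5.06% to 7.17% were intronic. Total gene reads were tested with edgeR 4.0.16 in R 4.3.3: filterByExpr (minimum count 10, minimum total 15) left 9457 genes, followed by TMM scaling and a robust quasi-likelihood fit with the group as its only term (biological coefficient of variation 0.199). Calls used a Benjamini-Hochberg adjusted p under 0.05. The p-values of edgeR set the difference between the groups against the spread between these libraries. Chi-square per degree of freedom between libraries of a group was at least 20.6, so no library was a repeat of another. Shares within a subunit were compared by exact permutation over the 7 libraries (scipy 1.17.1). Figures used matplotlib 3.10.9.

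The members and all gene lists were chosen with earlier results of these data known. Every Vha row is accounted for. Values per library are given for the highest gene of each subunit, each called member and each member whose groups do not overlap. Other genes are hop and, from each list, up to 4 called genes of the largest change, or the 2 most expressed where none was called; some of these are left out of the text. The ratios, the counts of libraries that were highest, CG31030 and Vha100-1 were picked after their values or names were seen.

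Counts were simulated for the same comparison over 9457 genes, of which 9352 passed the filter, with 200 changed. There edgeR called 32.7% of 55 genes changed 1.5-fold, 72.9% of 70 changed 2-fold and 93.3% of 75 changed 4-fold. Far fewer genes were changed than the 2978 called in the data, and the adjustment of p depends on that number. These shares are therefore not the detection rates of the data. Alternatives were RLE and library-size scaling, no filter, a filter of 1 CPM in 3 libraries, the tests of DESeq2 1.42.0 and limma-voom (limma 3.58.1), unique and exon reads, the replicate number as a block, an adjusted p of 0.01, each library left out, and control replicate 2 with Hop.CA replicate 1 left out together. Shares were also taken from unique reads and from CPM. The muscle covariate was added after seeing the data. Promoter and protein sequences were not used here.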

Additional observations from a re-analysis of the deposited data

How the results depend on the processing

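Depth limits the 13 members with at most 9 reads in a library, whose differences were not detectable, and VhaM9.7-c has no uniquely assigned read. Temperature is confounded with Hop.CA throughout. Vha14-2 kept its call in all 18 settings (log2 fold change 2.50 to 3.04), and the leading genes stayed within 0.25 of 0 in all settings but the one without control replicate 1, where VhaAC39-1 reached 0.26. Same-numbered libraries showed no positive correlation of their deviations from the group means (-0.223, -0.432 and -0.0694). Deviations within a group sum to 0, so these values cannot settle whether libraries were paired. The largest correlation was 0.432, between Hop.CA replicate 1 and control replicate 2, the libraries left out together below. With the replicate block, 938 genes were called against 2978 without it, with 1 Vha gene higher and 0 lower: Vha36-3 (adjusted p = 0.0835 by edgeR), Vha68-1 (0.129), VhaM9.7-c (0.0675) and VhaAC39-1 (0.187) lost their calls, and Vha13 (-0.0128) and VhaPPA1-1 (-0.0139) changed sign. With the muscle covariate, added after seeing the data, 805 genes were called, with 1 Vha gene higher and 0 lower, and Vha55 (0.00883), Vha44 (0.0576), Vha26 (0.0379), Vha100-2 (0.107), Vha16-1 (-0.0939), VhaPPA1-1 (-0.0293) and VhaM9.7-b (0.00497) changed sign. With control replicate 2 and Hop.CA replicate 1 left out together, 1573 genes were called, with 1 Vha gene lower, Vha68-1 missed the threshold (0.0506) and Vha100-1 changed sign (0.00668). At an adjusted p of 0.01, 1312 genes passed, with 2 Vha genes higher and 1 lower. Leaving out 1 library gave 1676 (without Hop.CA replicate 3) to 3407 called genes, with 1829 without Hop.CA replicate 1, and 2 to 3 higher and 1 to 2 lower Vha genes. The uncalled log2 fold changes near 0 then spanned 0 in some cases: Vha55 -0.0348 to 0.00207, Vha44 -0.0379 to 0.00510, Vha26 -0.0429 to 0.0131, Vha13 -0.0201 to 0.0948, Vha100-1 -0.105 to 0.0183, Vha100-2 -0.0629 to 0.0159, VhaPPA1-1 -0.0229 to 0.103 and VhaM9.7-b -0.0541 to 0.0560. VhaM9.7-b also changed sign without a filter (0.00021) and with limma-voom (0.0010). The share of Vha100-2 in subunit a differed by -0.741 to 1.07 percentage points with 1 library left out, against 0.418 in all. From unique reads, where VhaM9.7-c has none, the share of VhaM9.7-b differed by 0.0814 points. The cause of these changes was not tested, except that fewer libraries entered the fits that left some out.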
